A study of Saccharomyces cerevisiae with 30 samples.

Results

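The 42 genes described here encode proteins of the large (60S) subunit of the budding yeast ribosome: RPL20 to RPL43 without RPL22 and RPL40, and the stalk genes RPP0, RPP1A, RPP1B, RPP2A and RPP2B. They were chosen by name, with earlier results of these data known, and all 42 were found among the 7126 features of each count table. They comprise 15 pairs of RPL paralogs, 2 pairs of stalk paralogs and 8 single-copy genes (RPL25, RPL28, RPL29, RPL30, RPL32, RPL38, RPL39 and RPP0). Another 39 large-subunit genes (RPL1 to RPL19 with the RPL22 and RPL40 pairs) and 57 small-subunit genes (the RPS genes and ASC1) served for comparison.

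A ribosome needs 1 copy of nearly every r-protein, so cells make r-proteins in step with rRNA, and yeast r-protein genes are among the most transcribed genes of a growing cell. Rap1, Fhl1 and Ifh1 act at most of their promoters, while Sfp1 and the corepressor Crf1 link them to growth signals. The stalk, a flexible arm that recruits translation factors to the ribosome, is built on uL10, the product of RPP0, to which the P1 and P2 proteins bind through their N-terminal domains. Other members have well-known places in the subunit: uL23 (RPL25) and eL39 (RPL39) line the mouth of the exit tunnel, eL24 (RPL24A and RPL24B) joins the particle in the cytoplasm after the ATPase Drg1 has removed its placeholder Rlp24, and eL41 (RPL41A and RPL41B) is one of the shortest proteins known.

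RNA-seq was compared in 30 samples, with 2 libraries per condition in the auxin and DZA experiments and 1 in the diamide experiment. RRP44-AID, LAS1-AID, RAT1-AID and RRP17-AID cells carry the named rRNA-processing nuclease fused to 3xV5-IAA7, an auxin-inducible degron (AID). They and their WT strain share OsTIR1 expressed from the GPD1 promoter, which lets auxin direct the tagged protein to degradation, and RPB3-3xFLAG. These cells received 100 µM auxin (indole-3-acetic acid) for 20 min, or a mock treatment. DZA (diazaborine), an inhibitor of Drg1, was given to WT cells of BY4741 at 15 µg/ml for 15 or 45 min, against 0.1% DMSO at the same times. Diamide, which oxidizes thiols, was given to BY4741 RPB3-3xFLAG cells at 1.5 mM for 15 min, against the same culture at 0 min. All cultures were in YPD at mid-log phase. The auxin replicates, lettered A and B, came from different isolates of each strain and were handled on different days.

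The values are read counts divided by DESeq2 size factors (normalized counts) in the auxin and DZA libraries, and RPKM, a read count scaled by gene length and library depth, in the diamide libraries. Between 15014154 and 99585064 reads fell on features in the 26 libraries whose reads could be recovered. In the RRP17-AID table both mock columns hold the same value for all 7126 features, so they were counted as 1 library and that strain was not tested. One library, auxin A of WT cells, had 15.6% of its counts on noncoding features, where the others had 7.01% to 11.0%. Differences were tested with limma on log2(normalized count + 1), two-sided, and called at a Benjamini-Hochberg adjusted p under 0.05 over all features with a mean of at least 10, which all 42 genes passed. With 2 libraries against 2, an exact permutation test cannot give a two-sided p under 0.333, so the calls rest on the spread that limma shares between features.

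The stalk genes share the end of their coding sequences. All 5 close with the same acidic stretch, by which the stalk binds translation factors. The last 42 coding bases are printed here, coding strand and 5′ to 3′, because they show how close the ends are in genes that responded differently. Capitals mark the 35 bases that are equal in all 5 genes, and the final 3 letters are the stop codon (R64 assembly, RefSeq).
RPP0 (chrXII:806784-806825, plus strand): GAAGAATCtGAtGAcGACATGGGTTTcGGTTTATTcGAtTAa
RPP1A (chrIV:309802-309843, minus strand): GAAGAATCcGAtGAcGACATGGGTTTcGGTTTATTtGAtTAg
RPP1B (chrIV:230486-230527, plus strand): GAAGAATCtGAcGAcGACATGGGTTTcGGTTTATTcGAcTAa
RPP2A (chrXV:254576-254617, plus strand): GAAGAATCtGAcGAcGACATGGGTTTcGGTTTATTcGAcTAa
RPP2B (chrIV:1239783-1239824, plus strand): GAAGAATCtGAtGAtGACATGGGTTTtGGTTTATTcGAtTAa
Away from this end the stalk paralogs have diverged. The proteins of RPP1A and RPP1B were 59.6% identical and those of RPP2A and RPP2B 61.8%. Neither pair shared a run of 50 coding bases, so a stretch of that length tells its copies apart. RPP1B and RPP2A are equal at all 42 bases printed, and reads within that end can match both.

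The RPL pairs lie much closer together. RPL20, RPL23, RPL35, RPL41, RPL42 and RPL43 each make identical proteins from both copies, and the other 9 pairs differ at 1 to 6 residues. RPL41A and RPL41B are an extreme case, with coding sequences of 78 bases that differ at 1 base (capital; coding strand, R64 assembly, RefSeq).
RPL41A (chrIV:130407-130484, minus strand): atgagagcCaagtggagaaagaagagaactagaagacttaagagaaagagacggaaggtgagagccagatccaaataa
RPL41B (chrIV:221724-221801, minus strand): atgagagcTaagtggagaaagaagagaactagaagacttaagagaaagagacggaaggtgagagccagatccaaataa
Of all windows of 50 coding bases in the first copy, 69.0% also occurred in the second copy for RPL41, 80.6% for RPL35 and 47.8% for RPL42. Reads from these pairs can match both copies, and the difference between their copies is uncertain in all that follows. For RPL27, RPL31, RPL33 and RPL43 no such window was shared, and for the remaining RPL pairs 3.2% to 13.4% were.

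In unstressed cells the genes were not equally expressed. At 0 min of the diamide experiment, a single library, the RPKM per mature length (introns of the coding part left out) ranged from 249 for RPL35B to 2730 for RPP0. RPL28 stood at 2657, RPL41B at 2102, RPL25 at 2022 and RPL41A at 1949. RPP2A had 1653, RPP1A 1529, RPP1B 1507 and RPP2B 1493, so the P1 and P2 genes were alike on this scale and all below RPP0. The paralogs RPL31B (369), RPL33B (598) and RPL27B (629) were below their partners RPL31A (1252), RPL33A (1163) and RPL27A (1325). RPL24A, RPL24B, RPL29 and RPL32 have spans that start 356 to 489 bases before the start codon, and their RPKM could not be corrected for an intron there.

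Depletion of Las1, an endonuclease that cuts an internal spacer of the precursor of the large-subunit rRNAs, lowered the transcripts of nearly all of the genes. In LAS1-AID cells 41 of the 42 fell and 0 rose, where of the 6103 features tested 17.2% fell and 16.5% rose. Both auxin libraries lay below both mock libraries for all 42 genes and for 36.9% of features. The median log2 fold change was -0.78 over the 42 genes and -0.02 over all features, and it was -0.68 between the A libraries and -0.90 between the B libraries. The genes took 2.75% and 2.37% of the counts on coding features in the auxin libraries, against 3.95% and 3.79% in the mock libraries. The same held for 39 of 39 other large-subunit genes (median -0.88) and 56 of 57 small-subunit genes (median -0.83), so the 42 genes moved with the r-protein genes as a whole. A normalized count is relative to the rest of its library, so a loss of these transcripts and a gain of all others cannot be told apart, nor can changes in the number of cells.

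RPP0 (YLR340W, chrXII:805887-806825 in R64, without an intron) showed one of the larger falls in LAS1-AID cells. Its normalized count was 27242 and 18295 after auxin, against 50905 and 47092 after mock treatment, a log2 fold change of -1.13 (SE 0.19, adjusted p = 0.00286 by limma). The P1 and P2 genes had less change. RPP1A stood at 12152 and 11890 after auxin, against 17681 and 16853 after mock (log2 fold change -0.52, SE 0.10, adjusted p = 0.00462), and RPP1B at 7547 and 5402, against 11161 and 11136 (-0.80, SE 0.14, adjusted p = 0.00379). RPP2A had 8857 and 8686 after auxin, against 15181 and 14324 after mock (-0.75, SE 0.09, adjusted p = 0.000684), and RPP2B had 15260 and 9367, against 21920 and 18008 (-0.73, SE 0.21, adjusted p = 0.0264). Every auxin library lay below both mock libraries for each of the 5 stalk genes, and the call for RPP1A was lost without mock A (adjusted p = 0.0760). The call for RPP2B was lost without the trend (adjusted p = 0.107 by limma), and its log2 fold change was -1.08 without auxin A and -0.38 without auxin B.

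The largest falls in LAS1-AID cells were those of 3 B paralogs. RPL27B (YDR471W, chrIV:1401770-1402564), which encodes eL27, had 6158 and 4802 counts after auxin, against 14716 and 13213 after mock, or 39.0% of its mock level (log2 fold change -1.36, SE 0.13, adjusted p = 0.000148). RPL31B (YLR406C, chrXII:931065-931755), which encodes eL31 beside the exit tunnel, had 3673 and 3263, against 8531 and 7601 (-1.22, SE 0.10, adjusted p = 7.62e-05). RPL33B (YOR234C, chrXV:778555-779405), which encodes eL33, had 5864 and 3949, against 11465 and 10628 (-1.20, SE 0.16, adjusted p = 0.00105). Each of them has 1 intron, and in each the auxin libraries lay far below both mock libraries. The smallest changes were those of RPL35B (4954 and 5263 after auxin, against 6618 and 7252 after mock; -0.44), RPL33A (21670 and 23541, against 30554 and 31991; -0.47) and RPP1A. The call for RPL33A was lost without mock A (adjusted p = 0.179) or mock B (adjusted p = 0.232), and that for RPL35B without mock B (adjusted p = 0.0742). RPL41A (YDL184C) was the gene that missed the threshold, with 2627 and 1544 counts after auxin, against 3479 and 2752 after mock (-0.62, adjusted p = 0.0558). It passed in the fit with a replicate block, where 1 residual degree of freedom was left and limma gave all genes of like level the same spread (adjusted p = 1.51e-14).

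Depletion of Rrp44, the exonuclease of the exosome, gave smaller falls in nearly the same number of genes. In RRP44-AID cells 40 of the 42 fell and 0 rose, where of 6343 features 10.2% fell and 15.1% rose. The auxin libraries lay below both mock libraries for all 42 genes and for 34.2% of features. The median log2 fold change was -0.52 (all features, -0.01), and it was -0.62 between the A libraries and -0.42 between the B libraries. The genes took 2.90% and 3.14% of coding counts after auxin, against 4.11% and 3.96% after mock. The count of falls was 16 without auxin A, with all 42 values still negative and a median of -0.46. Among the other r-protein genes 36 of 39 large-subunit genes fell (median -0.55) and 52 of 57 small-subunit genes (median -0.55).

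In RRP44-AID cells RPP0 had 46225 and 50087 counts after auxin, against 68109 and 69125 after mock (log2 fold change -0.51, SE 0.09, adjusted p = 0.00878 by limma). RPP1A had 14905 and 17978, against 20499 and 22261 (-0.38, adjusted p = 0.0443), RPP1B 9777 and 10857, against 14222 and 14876 (-0.50, adjusted p = 0.00765), and RPP2A 13839 and 14884, against 20705 and 19325 (-0.48, adjusted p = 0.00825). RPP2B had 21203 and 25960 counts after auxin, against 29056 and 31067 after mock (-0.36, adjusted p = 0.0616, or 0.0242 with the block). The auxin libraries were below both mock libraries for all 5, and without auxin A the adjusted p of RPP0 was 0.0758, of RPP1A 0.295, of RPP1B 0.0730 and of RPP2A 0.0752.

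RPL27B and RPL33B also had the largest falls in RRP44-AID cells. RPL27B had 10783 and 11688 counts after auxin, against 22545 and 19161 after mock (-0.89, SE 0.10, adjusted p = 0.00190), RPL33B had 8205 and 8383, against 14220 and 14135 (-0.77, SE 0.07, adjusted p = 0.000882), and RPL42A had 6608 and 7433, against 12840 and 10928 (-0.76, SE 0.11, adjusted p = 0.00389). RPL31B followed at -0.71. RPL35B had the least change, with 5370 and 5555 counts after auxin, against 6140 and 7112 after mock (-0.27, adjusted p = 0.0725, or 0.0380 with the block). RPL37A, which encodes eL37, had 14132 and 15150, against 17395 and 20284 (-0.36, adjusted p = 0.0393), and its call was lost without auxin A (adjusted p = 0.217) or auxin B (adjusted p = 0.118).

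Depletion of Rat1, a 5′-exonuclease that also acts in transcription termination, gave no call among the 42 genes. In RAT1-AID cells 0 fell and 0 rose by limma, although 6.02% of 6524 features fell and 10.7% rose. At an unadjusted p under 0.05 the genes numbered 3 lower and 0 higher, against 986 and 1112 of the 6524 features. edgeR (5.73% of features lower) and DESeq2 (9.17%) also called 0 of the 42. Of the other r-protein genes, limma called 7 of 39 large-subunit genes (median -0.09) and 3 of 57 small-subunit genes (median -0.06) lower. The median log2 fold change of the 42 genes was -0.05 (all features, -0.01). Behind it stood replicates on opposite sides: the median was -0.36 between the A libraries, where all 42 were lower after auxin, and 0.25 between the B libraries, where 7 were. The genes took 3.74% of coding counts in auxin A and 4.86% in auxin B, against 4.56% and 4.50% after mock. RPL30, whose product eL30 binds its own transcript, had 20677 and 55721 counts after auxin, against 31152 and 28398 after mock. RPP0 was at 116560 and 137404 after auxin, against 148561 and 136962 after mock. RPL27B had the lowest value of the 42 (-0.46, adjusted p = 0.147), with 25313 and 34441 after auxin, against 41730 and 39440 after mock. Its auxin libraries did not overlap its mock libraries, which in the lower direction held for 7 of the 42 genes and 30.4% of all features.

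Auxin by itself, in WT cells without a degron, gave no call either: 0 of the 42 genes and 0.0% of 6295 features fell, and as many rose, by limma. At an unadjusted p under 0.05 the genes numbered 0 lower and 0 higher, against 25 and 23 of the 6295 features. Neither edgeR (0.0% of features lower) nor DESeq2 (0.0159%) called any of the 42. The median was 0.18, with 0.42 between the A libraries and -0.02 between the B libraries. The library with the raised noncoding share, auxin A, also had the largest share of the 42 genes (5.45% of coding counts, with 4.09% in auxin B, against 4.40% and 4.26% after mock), and its part in the median was not tested beyond leaving it out, which gave -0.03. RPL43B had 50949 and 21310 counts after auxin, against 20983 and 23428 after mock, so its value of 0.57 came from 1 library, and without auxin B it was called higher (1.20, adjusted p = 0.0455). RPP0 had 137287 and 156433 after auxin, against 136303 and 145297 after mock.

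Depletion of Rrp17, a 5′-exonuclease, could be set against 1 mock library alone. All 42 genes had lower values in both auxin libraries than in the mock library. Of 6100 features, 3076 were lower in auxin A and 2999 in auxin B. The median log2 fold change of the 42 was -0.37 (all features, 0.00), with a range of -0.76 for RPL31B to -0.19 for RPL34A. The mean of the auxin libraries was at least 1.5-fold lower for 4 of the 42 and for 2.39% of 6100 features. RPL31B stood at 8173 and 8607 after auxin, against 14243 after mock, RPL27B at 14192 and 15213, against 24089, and RPL33B at 10250 and 9617, against 15943. RPP0 stood at 45912 and 44335 after auxin, against 64925 after mock, and RPL41A at 3123 and 3048, against 3531. Without replicate mock libraries these differences have no test. The paper also describes the tagged Rrp17 as a partial loss-of-function allele, with accumulated pre-rRNA before any auxin and slower growth. The mock library was therefore not an unperturbed baseline.

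**Figure D1:**
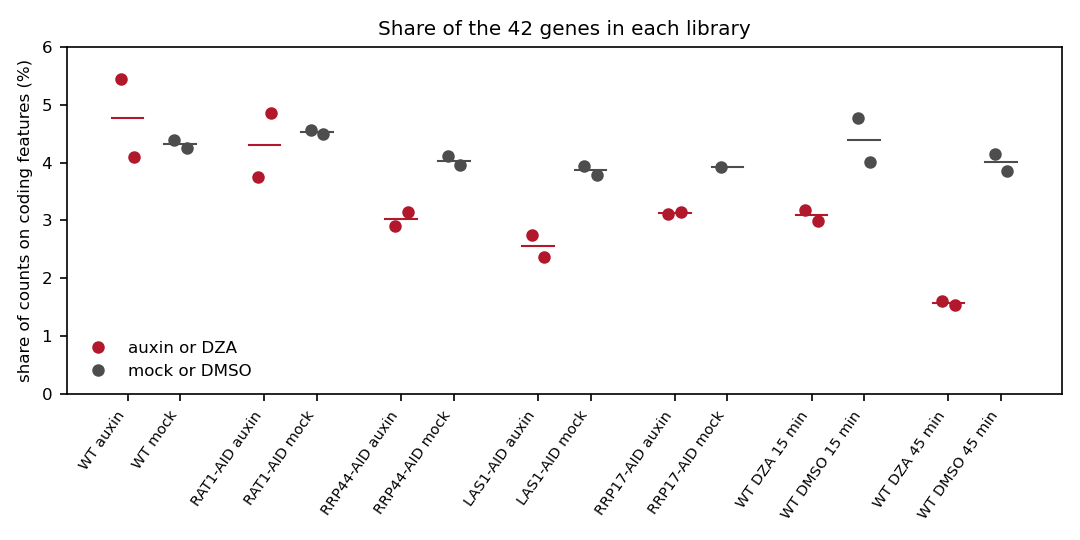
Share of the counts on coding features taken by the 42 genes in each library (vertical axis, percent), for auxin or DZA (red) and mock or DMSO (grey) libraries, with lines at the group means and the 2 equal RRP17-AID mock columns drawn once. Shares were 1.60% and 1.53% after 45 min of DZA, against 4.16% and 3.85% in DMSO, and the RAT1-AID auxin libraries lay on both sides of their mock libraries.

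DZA also lowered the transcripts of these genes, in WT cells with none of the nucleases depleted. At 15 min 7 of the 42 fell and 0 rose (1.13% of 6311 features fell and 3.8% rose). At 45 min all 42 fell (23.7% of 6476 features fell and 23.7% rose), and the groups did not overlap for any of the 42, as for 38.0% of features in that direction. Across the 42 genes the median was -0.75 after 15 min and -1.63 after 45 min on the log2 scale (all features, -0.02 and -0.01). At 45 min the genes were left at a median of 32.4% of their DMSO level, and their share of coding counts was 1.60% and 1.53% in DZA, against 4.16% and 3.85% in DMSO. At 15 min it was 3.18% and 2.99% in DZA, against 4.77% and 4.01% in DMSO. Here too other r-protein genes moved alike, with medians of -0.77 and -1.71 over the other large-subunit genes at 15 and 45 min and of -0.75 and -1.64 over the small-subunit genes.

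The count at 15 min depended on single libraries and on the tool. Without DZA A or DZA B it was 0, without DMSO A it was 35 and without DMSO B 39, while the median stayed between -0.88 and -0.62. DESeq2 called 31 of the 42 lower, against 7.27% of all features, and edgeR 5, against 1.08%. At 15 min 40 of the 42 genes were lower in both DZA libraries than in both DMSO libraries, which held for 30.6% of all features. The exceptions were RPL41A (6017 and 4325 counts in DZA, against 10134 and 2952 in DMSO) and RPL41B (5781 and 4325, against 9280 and 3819), where DMSO B lay below both DZA libraries. The 7 genes called were RPL31B (10157 and 11418 in DZA, against 21021 and 20927 in DMSO; -0.96, SE 0.13, adjusted p = 0.0331 by limma), RPL43A (18765 and 17219, against 38766 and 31200; -0.95, adjusted p = 0.0458), RPL33B (13605 and 14093, against 30387 and 23509; -0.95, adjusted p = 0.0481), RPL27B, RPP0, RPL23A and RPL24B. RPL35B, near the other end, had 8090 and 7889 in DZA, against 10491 and 8151 in DMSO (-0.21, adjusted p = 0.472). RPL30 had the most negative value, -1.21, from 13712 and 13500 counts in DZA, against 44079 and 22348 in DMSO, and missed the threshold (adjusted p = 0.103).

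At 45 min the DZA and DMSO libraries were well apart, and no library changed the count of 42 when left out. RPL31B had 3383 and 3986 counts in DZA, against 23679 and 26548 in DMSO, and so kept 14.7% of its DMSO level (log2 fold change -2.77, SE 0.11, adjusted p = 0.000287 by limma). RPL33B had 4790 and 4899, against 30914 and 29668 (-2.64, SE 0.05, adjusted p = 0.000168), and RPL27B had 6829 and 6769, against 43268 and 40576 (-2.62, SE 0.05, adjusted p = 0.000168). After these 3 came RPL30 (6755 and 5807, against 31075 and 28235; -2.24) and RPL42A (5443 and 5807, against 22857 and 25052; -2.09), which encodes eL42 near the exit site for tRNA.

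The stalk genes split at 45 min of DZA. RPP0 fell to 41051 and 43723 counts in DZA, against 156488 and 160200 in DMSO (log2 fold change -1.90, SE 0.06, adjusted p = 0.000231 by limma). RPP1B had 10833 and 10184, against 35032 and 29354 (-1.61, SE 0.10, adjusted p = 0.000854), and RPP2A had 13290 and 16018, against 39051 and 44175 (-1.51, SE 0.12, adjusted p = 0.00139). RPP1A and RPP2B kept 50.6% and 53.2% of their DMSO level. RPP1A had 24087 and 25537 in DZA, against 51057 and 47029 in DMSO (-0.98, SE 0.07, adjusted p = 0.00104), and RPP2B had 31114 and 34236, against 61096 and 61602 (-0.91, SE 0.07, adjusted p = 0.00120). At 15 min RPP0 was the stalk gene that passed by limma (68247 and 72196 in DZA, against 127282 and 134826 in DMSO; -0.90, adjusted p = 0.0419). Its P1 and P2 partners had values of -0.47 for RPP1A, -0.77 for RPP1B, -0.60 for RPP2A and -0.44 for RPP2B at that time, none past the threshold by limma, with DZA below DMSO in every library. DESeq2 called RPP1A (adjusted p = 0.0361), RPP1B (0.00663) and RPP2A (0.0147) lower as well, and the limma call for RPP0 was lost with centring on the median (adjusted p = 0.0501), without the trend (0.0525) and without DZA A (0.498) or DZA B (0.372).

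The smallest change of all at 45 min was that of RPL41A, with 6009 and 6286 counts in DZA, against 11121 and 8628 in DMSO (-0.67, SE 0.13, adjusted p = 0.0158 by limma). RPL41B had 4746 and 5381, against 11318 and 9099 (-1.01, SE 0.13, adjusted p = 0.00483). Libraries of 1 condition could lie far apart for this pair, with 10134 and 2952 counts of RPL41A in DMSO at 15 min and 11970 and 4277 in mock-treated WT cells.

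**Figure D2:**
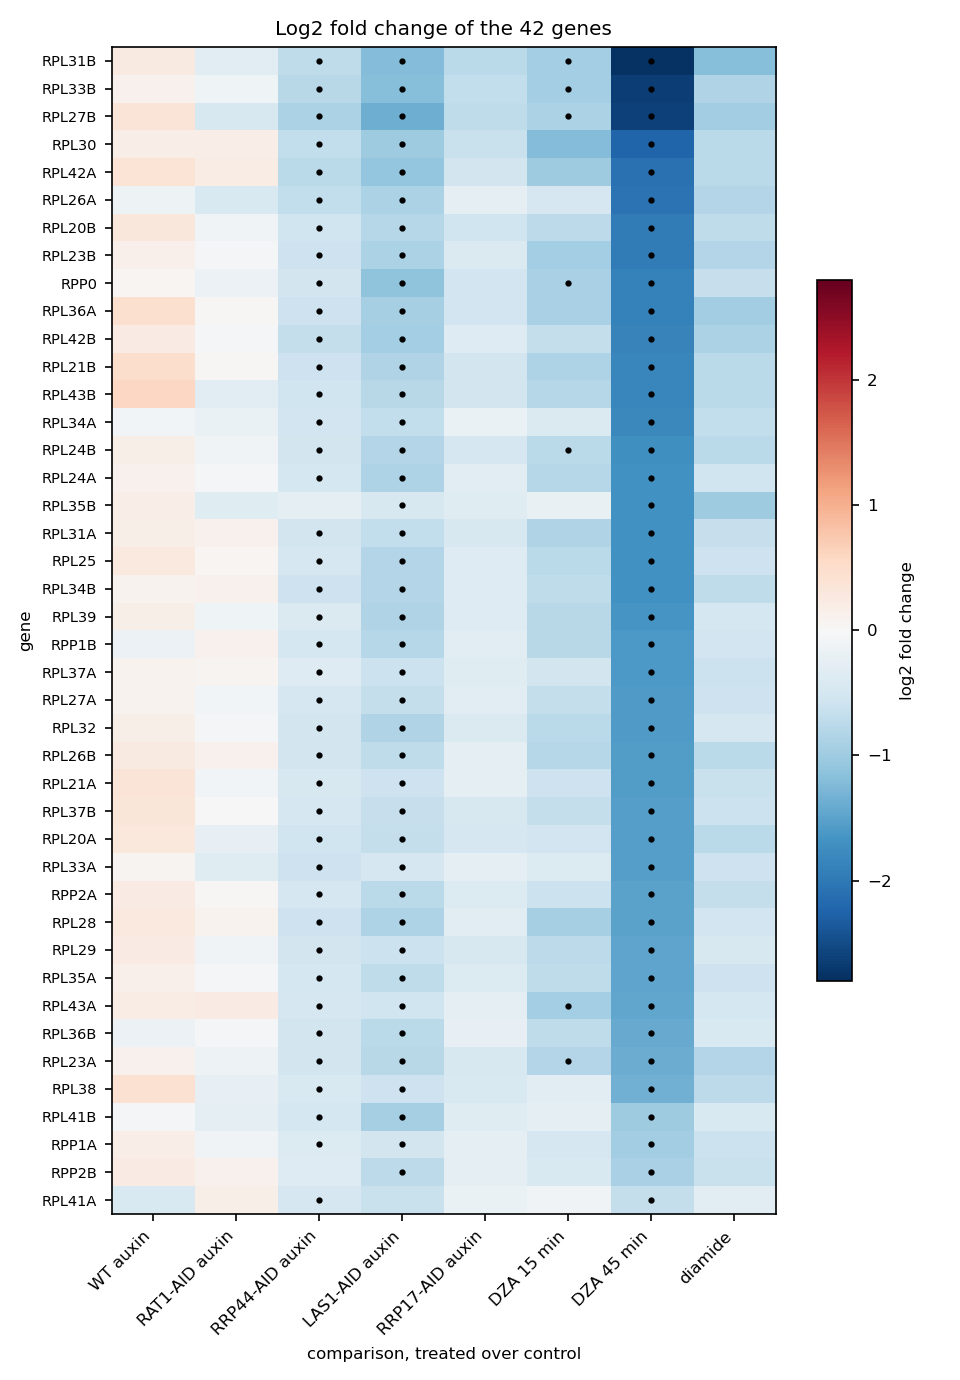
Log2 fold change of each gene (rows, ordered by the change at 45 min of DZA) in the 8 comparisons (columns, RRP17-AID and diamide untested), from blue (lower after treatment) to red (higher), with dots where limma called the gene. RPL31B, RPL33B and RPL27B head the order at -2.77, -2.64 and -2.62, and RPL41A ends it at -0.67.

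**Figure D3:**
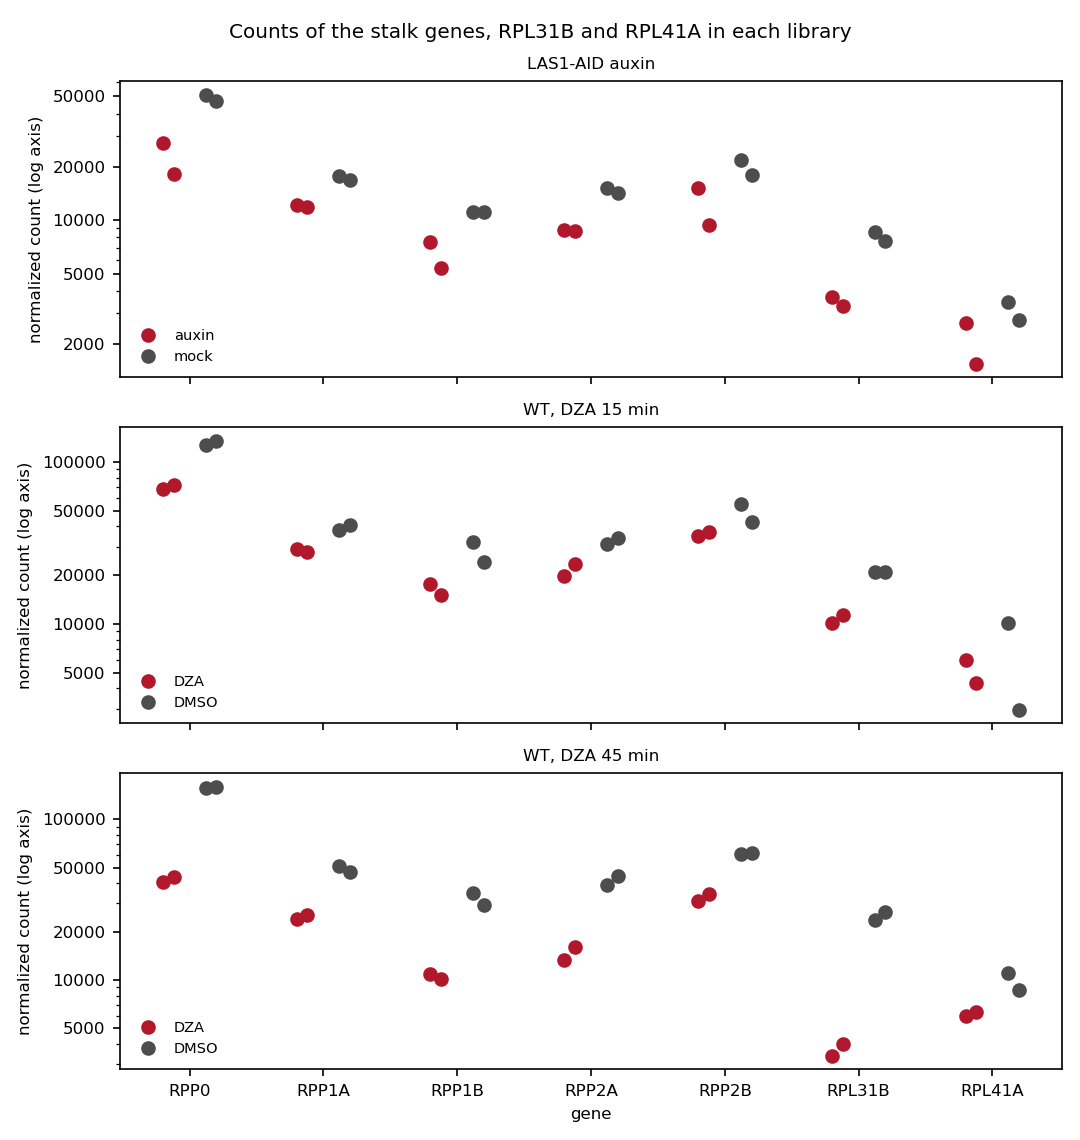
Normalized counts (log axis) of the 5 stalk genes, RPL31B and RPL41A in LAS1-AID cells and at 15 and 45 min of DZA (panels), with 1 point per auxin or DZA library (red) and mock or DMSO library (grey). RPL41A at 15 min of DZA is the one case of those plotted in which the groups overlap.

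The difference between DZA times and between strains was tested as an interaction, the treatment effect in one table minus that in the other, which cancels the separate scaling of the tables. Between 45 and 15 min of DZA the response of 13 of the 42 genes differed, all with the larger fall at 45 min (2.03% of 6299 features), led by RPL27B (difference -1.74, SE 0.11, adjusted p = 0.00537 by limma), RPL31B (-1.81, SE 0.16, adjusted p = 0.0112) and RPL33B (-1.70, SE 0.18, adjusted p = 0.0130). RPP0 was among them (adjusted p = 0.0186) and the other stalk genes were not. Without DMSO A or B or DZA A or B of 45 min, or without DZA A or B of 15 min, the count was 0, and without DMSO A or B of 15 min it was 38 or 30. The median difference was -0.97 over the 42 genes and -0.02 over all features. With a replicate block, which pairs libraries by letter, 0 of the 42 genes differed between the times.

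LAS1-AID cells differed from WT cells in their response to auxin for 10 of the 42 genes, all more negative in LAS1-AID cells (2.52% of 6076 features), and for 35 with the replicate block. The median difference was -0.97 over the 42 genes, within -1.73 to -0.19. The 10 genes included RPL31B (-1.47, SE 0.18, adjusted p = 0.00365 by limma), which had the smallest adjusted p. They also included RPP2A (-0.97, SE 0.16, adjusted p = 0.0118), whose difference lay close to the median. The count was 1 without LAS1-AID mock A, mock B or auxin B, 2 without WT mock A or mock B, and 36 without WT auxin B. RRP44-AID and WT cells had a median difference of -0.69 over the 42 genes, within -1.26 to -0.03. They differed for RPL31B (-0.97, adjusted p = 0.0153 by limma) and RPP2A (-0.70, adjusted p = 0.0416) out of the 42 (0.903% of 6199 features), and for 9 genes with the block. Without WT mock A or any 1 of the RRP44-AID libraries the count was 0, without WT auxin A it was 5 and without WT auxin B 33. WT cells are shared by these comparisons, so they are not independent of each other.

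RAT1-AID against WT cells gave 0 of 42 differences by limma (1.19% of features more negative). At an unadjusted p under 0.05, 2 of the 42 were more negative, as were 559 of 6279 features. LAS1-AID against RAT1-AID cells also gave 0 (1.26%), as edgeR did in both tests, although the median difference was -0.78. Here 26 of the 42 and 566 of 6102 features were more negative at an unadjusted p under 0.05. Without RAT1-AID auxin A, 26 genes passed at the adjusted threshold by limma. LAS1-AID against RRP44-AID cells gave 0 as well (0.64%), or 1 with the block, with a median difference of -0.24. In that test 4 of the 42 and 435 of 6090 features were more negative at an unadjusted p under 0.05. The larger median fall in LAS1-AID than in RRP44-AID cells therefore did not pass for single genes.

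Paralogs of 1 protein were compared within each library. At 45 min of DZA the difference between the copies (log2 fold change of B minus that of A) had the same sign for all 17 pairs when libraries were paired by letter, with the B copy lower in 11 and the A copy in 6. The letters of the DZA libraries share only a letter. Without pairing, the ratio of B to A counts in both DZA libraries lay below both DMSO libraries for 9 pairs and above both for 2, and the groups overlapped for the other pairs, RPL36 among them. The differences were largest for RPL33 (-1.10), RPL31 (-1.08), RPL27 (-1.04) and RPP1 (-0.63), and they are given as a description, without a test. For RPL31 the ratio of B to A counts was 0.213 and 0.241 in DZA, against 0.455 and 0.505 in DMSO, with both DZA libraries below both DMSO libraries. For RPL27 it was 0.252 and 0.299, against 0.531 and 0.603, for RPL33 0.161 and 0.223, against 0.353 and 0.472, and for RPP1 0.450 and 0.399, against 0.686 and 0.624. In the opposite direction stood RPP2 (0.60), RPL26 (0.51) and RPL36 (0.48). The RPP2 ratio was 2.34 and 2.14 in DZA, against 1.56 and 1.39 in DMSO, so the P2 gene with the smaller fall was the B copy while the P1 gene with the smaller fall was the A copy.

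In LAS1-AID cells 13 of the 17 pairs kept 1 sign in both replicates, with the B copy lower in 10. RPL33 (-0.73), RPL27 (-0.69) and RPL31 (-0.54) were again the largest differences, followed by RPL41 (-0.30), a pair whose reads are hard to assign. The RPL27 ratio was 0.329 and 0.337 after auxin, against 0.574 and 0.501 after mock, and the RPL31 ratio was 0.359 and 0.349, against 0.535 and 0.493. In RRP44-AID cells 11 pairs kept 1 sign, with RPL27 (-0.41), RPL35 (0.21), RPL31 (-0.20) and RPL33 (-0.19) at the top. At 15 min of DZA 6 did, with RPL35 (0.49), RPL42 (0.32), RPP1 (-0.30) and RPL21 (-0.27) the largest. RPL35 and RPL42 are pairs with shared sequence, and their copies cannot be told apart well.

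In RAT1-AID cells 8 pairs and in WT cells 6 had 1 sign in both replicates. In RAT1-AID cells the largest were RPL43 (-0.51), RPL31 (-0.42), RPL41 (-0.41) and RPL27 (-0.38), and the RPL27 ratio was 0.422 and 0.396 after auxin, against 0.563 and 0.505 after mock. In WT cells they were RPL36 (-0.61), RPL41 (0.40), RPP1 (-0.34) and RPL27 (0.28), so RPL27 had the opposite sign there. RRP17-AID cells had 12 such pairs, with RPL27 (-0.42), RPL33 (-0.42) and RPL31 (-0.32) the largest, measured against 1 mock library.

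**Figure D4:**
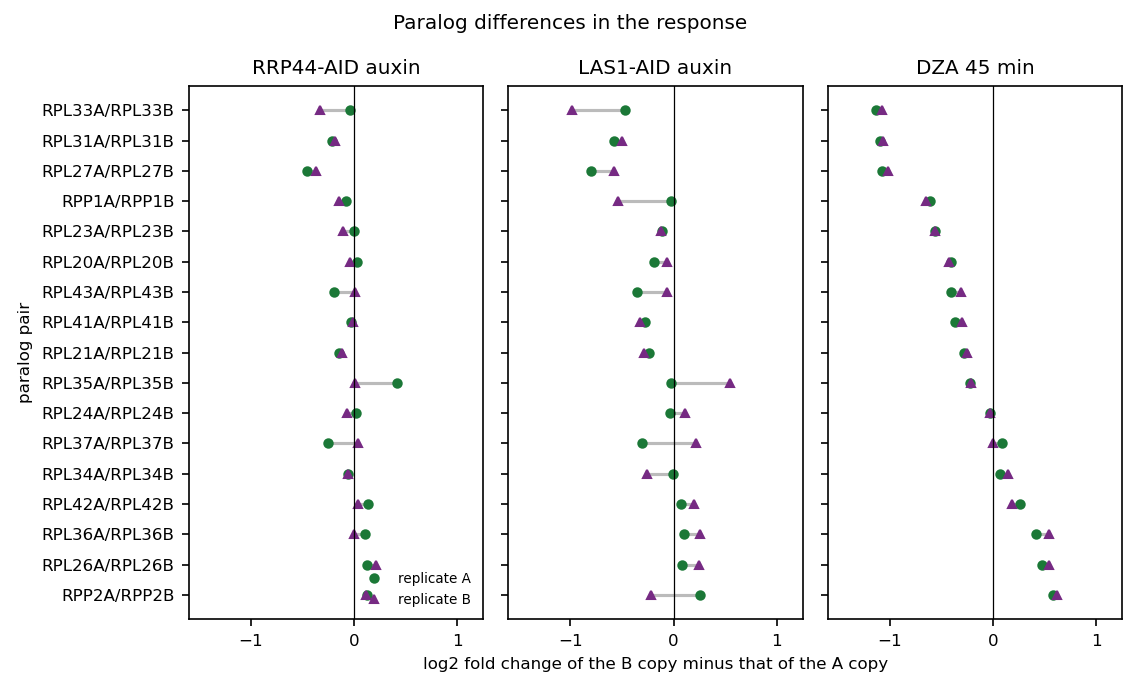
Difference in log2 fold change between the B and A copy of each of the 17 paralog pairs (horizontal axis, below 0 where the B copy is lower), with 1 symbol per replicate letter, in RRP44-AID auxin, LAS1-AID auxin and DZA at 45 min. RPL33, RPL31 and RPL27 lie between -1.13 and -1.01 at 45 min, and RPP2, RPL26 and RPL36 lie above 0.

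Diamide was measured in 1 library at 15 min and 1 at 0 min, so its differences have no replicate check. All 42 had lower RPKM at 15 min than at 0 min, with a median log2 fold change of -0.66 (all features, -0.08) and a range of -1.18 for RPL31B to -0.30 for RPL41A. Of the 42, 28 were at least 1.5-fold lower, and so were 19.4% of 5760 features. RPL31B had 99.9 RPKM at 15 min, against 227 at 0 min, RPL35B had 67.5, against 134, RPL27B 189, against 371, and RPL36A 96.2, against 190. RPL41A had 1587, against 1949, and RPP0 1734, against 2730. The 168 genes of ribosome biogenesis (RiBi) factors, which make and process rRNA, had a median of -2.01 here, against -0.70 for the other large-subunit genes and -0.70 for the small-subunit genes.

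The order of the 42 genes was compared between treatments. Across genes, Spearman's rho of the log2 fold changes was 0.68 between LAS1-AID auxin and DZA at 45 min, 0.66 between RRP44-AID auxin and DZA at 45 min, and 0.66 between diamide and DZA at 45 min, comparisons that share no library (n = 42 genes, which are not independent replicates; 28 pairs of comparisons were set side by side). Over all features the same values were 0.66, 0.55 and 0.31. Over the 42 genes, rho with RAT1-AID auxin was between -0.29 and 0.28 in every comparison, and with WT auxin between -0.49 and 0.0095. Over all features RAT1-AID auxin had 0.57 with RRP44-AID, 0.52 with LAS1-AID and 0.32 with RRP17-AID auxin. It had 0.47 and 0.38 with DZA at 15 and 45 min, 0.04 with WT auxin and -0.03 with diamide. For WT auxin the values over all features lay between -0.23 and 0.04. The level at 0 min, per mature length, had a rho of 0.45 with the change at 45 min of DZA and of 0.58 with the change after diamide, where the 0 min library enters both values. It was 0.43 with the change in RRP44-AID cells, 0.18 in LAS1-AID cells and 0.17 at 15 min of DZA. RPP0 and RPL30 departed from the order at 45 min, since both were high at 0 min (2730 and 1537 RPKM) and both fell by more than the median gene at 45 min.

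**Figure D5:**
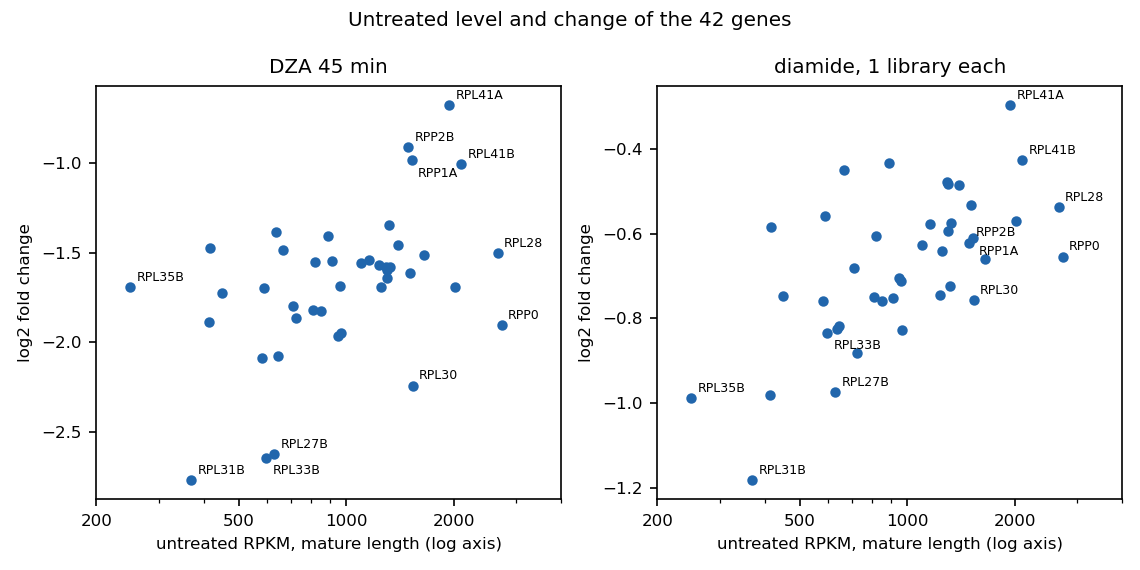
Log2 fold change of the 42 genes at 45 min of DZA (left) and after diamide (right) against the RPKM per mature length at 0 min of the diamide experiment (log axis), 1 point per gene. RPL41A has the smallest change in both panels and RPL31B, at 369 RPKM, the largest.

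Splitting the 42 genes by structure moved the medians little. The 31 genes with an intron in the coding part had a median of -1.69 at 45 min of DZA and -0.80 in LAS1-AID cells, and the 11 without one -1.49 and -0.75. The 15 B copies of RPL pairs had medians of -1.82 and -0.83, and the 15 A copies -1.58 and -0.68. The 5 stalk genes had -1.51 and -0.75. These splits are descriptions without a test, and the counts cover both spliced and unspliced transcripts.

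The upstream sequences were searched because the genes moved together. In the 400 bases before the deposited transcript start, on either strand, 21 of the 42 genes held the Rap1-like letters ACCCNNACA, as did 4.62% of 5993 windows of coding genes, 30.8% of those of the other large-subunit genes and 22.8% of those of the small-subunit genes. GACGC, the core letters of Fhl1 sites, occurred in 31.0% of the members, 46.2% of the other large-subunit genes, 45.6% of the small-subunit genes and 25.8% of all windows. The RRPE letters GAAAATTTT and the PAC letters GCGATGAG, known from RiBi promoters, occurred in 2.38% and 0.0% of the members, against 44.6% and 45.2% of the RiBi windows and 6.06% and 4.69% of all windows. A match is a description of the letters and not a measured binding site. Below are 3 matches with 12 bases on each side, from pairs described above in which 1 copy has the letters and the other does not (capitals mark the match, coding strand, R64 assembly).
RPL27B (chrIV:1401423-1401455, plus strand): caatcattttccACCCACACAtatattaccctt
RPL33A (chrXVI:281756-281788, plus strand): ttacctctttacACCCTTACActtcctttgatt
RPL41B (chrIV:222125-222157, minus strand): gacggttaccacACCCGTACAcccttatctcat
RPL27B fell more than RPL27A, which had no match, whereas RPL33A, with the match, fell less than RPL33B. RPL41B, with the match, fell more than RPL41A at 45 min of DZA (-1.01 against -0.67) and in LAS1-AID cells (-0.92 against -0.62). Reads of the RPL41 pair are hard to assign. The median at 45 min of DZA was -1.61 for the 21 genes with the letters and -1.64 for the 21 without, and in LAS1-AID cells it was -0.77 and -0.82.

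Of the proteins that act on or beside the members during 60S assembly, 17 were listed, among them the Drg1 ATPase (AFG2), its substrate RLP24, the export factors NMD3 and ARX1, and MRT4 and YVH1, which keep and release the site of uL10. In LAS1-AID cells 5 of their genes fell and 0 rose by limma with a median of -0.17, in RRP44-AID cells 4 and 0 (-0.21), and at 45 min of DZA 5 and 1 (-0.16), where 17.2%, 10.2% and 23.7% of all features fell. In RAT1-AID cells 2 fell (6.02% of all features), SDO1 (-0.97, adjusted p = 0.00419 by limma) and ALB1 (-0.55, adjusted p = 0.0450). After diamide all 17 were at least 1.5-fold lower, with a median of -1.98, in the single pair of libraries. At 15 min of DZA none passed and the median was 0.38, with 0.66 between the A libraries and 0.09 between the B libraries. RLP24 had values of 0.56 and -0.16 at 15 and 45 min and MRT4 of 0.44 and -0.19, with none of them past the threshold. RLP24, MRT4, TIF6, RIA1, SDO1, ALB1, REI1, NOG1 and LOC1 are also among the 168 RiBi genes, so the medians of both lists rest partly on the same genes. Over the 168 RiBi genes the median was -0.07 in LAS1-AID cells, -0.13 in RRP44-AID cells, 0.39 after 15 min of DZA and -0.12 after 45 min. The RiBi median at 15 min was 0.60 between the A libraries and 0.11 between the B libraries.

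Among 6 transcription factors of r-protein genes, CRF1, whose product is a corepressor at these promoters, rose in each treatment tested except auxin in WT cells. It had 491 and 524 counts at 45 min of DZA, against 200 and 209 in DMSO (log2 fold change 1.31, adjusted p = 0.00183 by limma), and 211 and 240 in LAS1-AID cells after auxin, against 74.3 and 82.2 after mock (1.51, adjusted p = 0.000365). In RAT1-AID cells, where none of the 42 genes was called, it had 647 and 616 after auxin, against 194 and 225 after mock (1.59, adjusted p = 0.00404), and in WT cells 200 and 162, against 214 and 199 (-0.20). RAP1 (-0.33) and SFP1 (-0.31) fell at 45 min of DZA and IFH1 (0.28) rose in LAS1-AID cells, while FHL1 and HMO1 passed in no comparison.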

How the data were processed

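RNA-seq of 30 samples was used. Per the paper's methods, the authors ran Cutadapt, PRINSEQ, TopHat 2.1.0 and HTSeq, with Ensembl release 91, on reads from stranded libraries depleted of rRNA. No strand setting of the counting is given in the sources used here. The signal deposited for auxin and DZA samples is a read count over a DESeq2 size factor. For diamide they deposited RPKM values over the whole span of a gene, introns included. Columns with the authors' own fold changes and p-values were not used. Per-sample columns left unused numbered 0.

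Each table was tested alone with limma 3.58.1 (R 4.3.3) on log2(normalized count + 1), with a mean-variance trend, on features with a mean of at least 10, and Benjamini-Hochberg adjustment over them. Fold changes on this scale understate the change of low features. The p-values measure the spread between the libraries at hand. The paper calls the 2 DZA libraries of a group biological replicates. Its methods describe separate isolates and days for the auxin experiments alone. For diamide a pseudocount of 0.1 RPKM and a mean of at least 1 RPKM were used. Whole reads were recovered from the signal (100.0% of values whole within 1e-06) for all tables, except mock B of RRP44-AID. edgeR 4.0.16 and DESeq2 1.42.0 were run on these reads as alternatives, not for RRP44-AID. The tests were tried first on simulated data.

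The main fits held treatment alone and did not use the replicate letters. Auxin replicates of equal letter were taken as pairs in the alternative fits with a replicate block and in the differences by letter, since isolates were handled on different days. That 1 letter marks 1 day is an assumption. Their deviations from the group means had correlations of 0.449 (WT), 0.107 (RAT1-AID), 0.246 (RRP44-AID) and 0.184 (LAS1-AID). The other alternatives were a pseudocount of 10 (for diamide, 1 RPKM), no filter, median-centring, TMM scaling, no trend and the removal of single libraries. Members, lists and motifs were chosen with earlier results of these data known. Values per library are given for the stalk genes, the 3 largest falls among calls, the 3 smallest falls or largest rises, and the 4 paralog pairs with the largest difference of 1 sign in both replicates. Other genes were named after their values were seen. RefSeq's R64 annotation gave gene structures and sequences, and the deposited spans held the coding parts of 5829 of the 5994 genes checked. Python 3.11.15 with numpy 2.4.6, pandas 2.3.3 and scipy 1.17.1 made the tables.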

Additional observations from a re-analysis of the deposited data

Results flagged for a closer look

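Between 45 and 15 min of DZA, 13 of the 42 genes differed in their response by the interaction test in limma, all with the larger fall at 45 min. With the replicate block none of them did. Between LAS1-AID and WT cells 10 of the 42 differed in their response to auxin, and between RRP44-AID and WT cells 2 did, RPL31B and RPP2A. Without the block RPL31B was called in all of these tests, and RPL27B and RPL33B in those of DZA and LAS1-AID. No group held the 4 samples that a search for single outlying samples needs.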

How the results depend on the processing

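Of the alternatives for single genes, those that kept all libraries left direction unchanged in all 428 cases and the side of the threshold in 414. Falls numbered 42 throughout at 45 min of DZA and 37 to 42 in LAS1-AID cells. With the replicate block or pairing by letter, 42 genes fell in RRP44-AID cells and 42 in LAS1-AID cells. The differing responses numbered 9 for RRP44-AID against WT, 35 for LAS1-AID against WT and 1 for LAS1-AID against RRP44-AID. For DZA, what equal letters share is not stated. The correlation of deviations was -0.084 at 15 min and 0.577 at 45 min over all features, and 0.206 and 0.819 over the 42 genes. There the block gave 10 and 42 falls and 0 differences between the times. Without the trend, 1 gene fell at 15 min of DZA and 6 differed between LAS1-AID and WT, DESeq2 gave 31 falls at 15 min, and centring on the median turned the RAT1-AID median to 0.040 and put that of diamide at -0.57. The cause was not tested.

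Leaving out each library (a lone library is then assumed to vary like the others) gave these ranges. Medians ran from -0.034 to 0.39 in WT, from -0.32 to 0.23 in RAT1-AID, from -0.98 to -0.61 in LAS1-AID and from -0.41 to -0.37 in RRP17-AID cells, and from -1.73 to -1.59 at 45 min of DZA. Rises numbered 0 to 1 in WT, 0 to 2 in RAT1-AID and 0 to 1 at 15 min of DZA. Falls numbered 0 to 1 in RAT1-AID, 16 to 42 in RRP44-AID and 0 to 39 at 15 min of DZA. Differing responses numbered 0 to 38 between DZA times, 0 to 3 for RAT1-AID, 0 to 33 for RRP44-AID and 1 to 36 for LAS1-AID against WT, 0 to 26 for LAS1-AID against RAT1-AID and 0 to 3 against RRP44-AID. Signs turned within -0.057 to 1.20 for RPL43B, -0.036 to 0.15 for RPP0 and -0.00055 to 0.36 for RPP1A in WT, within -0.52 to 0.91 for RPL30, -0.27 to 0.68 for RPL42A, -0.18 to 0.62 for RPL43A, -0.22 to 0.042 for RPP1A, -0.11 to 0.37 for RPP1B, -0.13 to 0.19 for RPP2A and -0.12 to 0.34 for RPP2B in RAT1-AID, and within -0.99 to 0.79 for RPL41A and -0.89 to 0.39 for RPL41B at 15 min of DZA.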
